A study of Mus musculus with 17 samples.

Results

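Translation factors are the proteins, beside the ribosome itself, that start and extend the protein chain, and their genes carry the symbols Eif and Eef. The members were all genes whose symbol begins with Eif or Eef and a number in the platform annotation of the array, which includes the eIF4E inhibitor Eif4ebp1 and the kinases of eIF2. There were 56 such genes, each with 1 probe, among 19854 named genes and unnamed probes. Of these, 47 had a mean signal at or above the median of all probes (6.41) and were tested with the rest of the array.

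The study used neural precursor cells cultured from the adult hippocampus of mice. Proliferating cells were kept in medium with basic fibroblast growth factor (bFGF) and epidermal growth factor (EGF), and both were withdrawn to start differentiation. Total RNA was measured on 17 Illumina bead arrays, 1 at each of 17 times, where 0 min marks the withdrawal and 720 min is the last time. For testing, the times were joined into 4 windows. The late one holds the 5 arrays of 420 to 720 min, the third the 3 arrays of 240 to 360 min, the second the 4 arrays of 90 to 180 min, and the early one the 5 arrays of 0 to 60 min. All windows hold cells of 1 labelled kind with no other agent named, and the labels give no genotype, strain, age in weeks or culture number. The series has no parallel culture that stayed in growth factors, so time in culture and withdrawal cannot be told apart.

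Eukaryotic translation begins when the factor eIF2 brings the initiator tRNA to the small ribosomal subunit, while eIF4F binds the cap of the mRNA and eIF3 joins the subunit to it. The exchange factor eIF2B recharges eIF2, and stress kinases stop this step by phosphorylating eIF2, which lowers general protein synthesis and favours translation of Atf4. Growth factor signalling through mTORC1 controls the cap step by phosphorylating 4E-binding proteins. The elongation factors eEF1A and eEF2 then deliver the aminoacyl-tRNAs and move the ribosome along.

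Values are log2 signals, differences are on the log2 scale with the standard error (SE) of the limma model, and means carry the SD across the arrays of their window. A member changed if its adjusted p in limma, with the Benjamini-Hochberg procedure over 9940 features, was under 0.05. Neighbouring times stood in for replicates, so the p-values measure the spread within windows of 1 series of arrays and not between cultures. Array medians lay between 6.40 and 6.42. Of the neural stem and progenitor markers, 6 of 7 were above the median of all probes, among them Nes, Sox2 and Vim, while Pax6 was not. Of the microglia markers 0 of 3, of the neuronal markers 1 of 5 (Map2) and of the endothelial and mural markers 1 of 4 (Acta2) were above it. Acta2 was at 7.98 at 720 min and 9.74 at 0 min, and Nes at 10.90 and 11.74. In contrast, Sox2, Vim, Fabp7, Sox9, Notch1 and Map2 were higher at 720 than at 0 min. The mean of the 4 astrocyte markers was 7.18 to 7.81 on the late arrays and 6.30 to 6.42 on the early arrays. Gfap, Aqp4 and S100b were higher at 720 than at 0 min, while Aldh1l1 was at 6.83 and 6.78. The mean of the 3 oligodendrocyte markers was 6.32 to 6.62 on the late and 5.91 to 6.06 on the early arrays. Of these only Mbp was higher at 720 min (7.36) than at 0 min (6.08). Mog was at 5.98 and 6.09 and Sox10 at 5.77 and 5.79, both below the filter. The part of these cell type markers in the changes described here was not tested.

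In the late window 20 of the 47 tested members fell (42.6%) and 12 rose (25.5%), against 27% of all features that fell and 27.9% that rose. Either way that is 32 members, where 54.9% of all features changed. The median change of the members was -0.15, and that of all features was 0.00. The arrays had nearly the same distribution of values, which holds the median of all features near 0. A shift common to all genes could therefore not be seen. The changes of the members ran from -1.37 for Eef1e1 and Eif1a to 0.79 for Eif1b. The late arrays lay wholly below the early arrays for 12 members (25.5%, against 19.1% of all features) and wholly above them for 7 (14.9%, against 19.4%). In the third window 8 members fell and 6 rose, where 18% of all features fell and 17% rose (35% either way). In the second window 4 fell and 2 rose, where 6.13% of all features fell and 5.48% rose (11.6% either way), and 11 members (23.4%) had an unadjusted p under 0.05 in limma, against 24.6% of all features. The second-window calls were the least settled, and only that of Eef1aknmt held when each array was left out in turn. Without the 180 min array 1 member fell in that window and 0 rose by the same limma test. The rises counted in the late and second windows include Eif4e3, which passed the filter only through its later values (early mean 6.33).

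**Figure D1:**
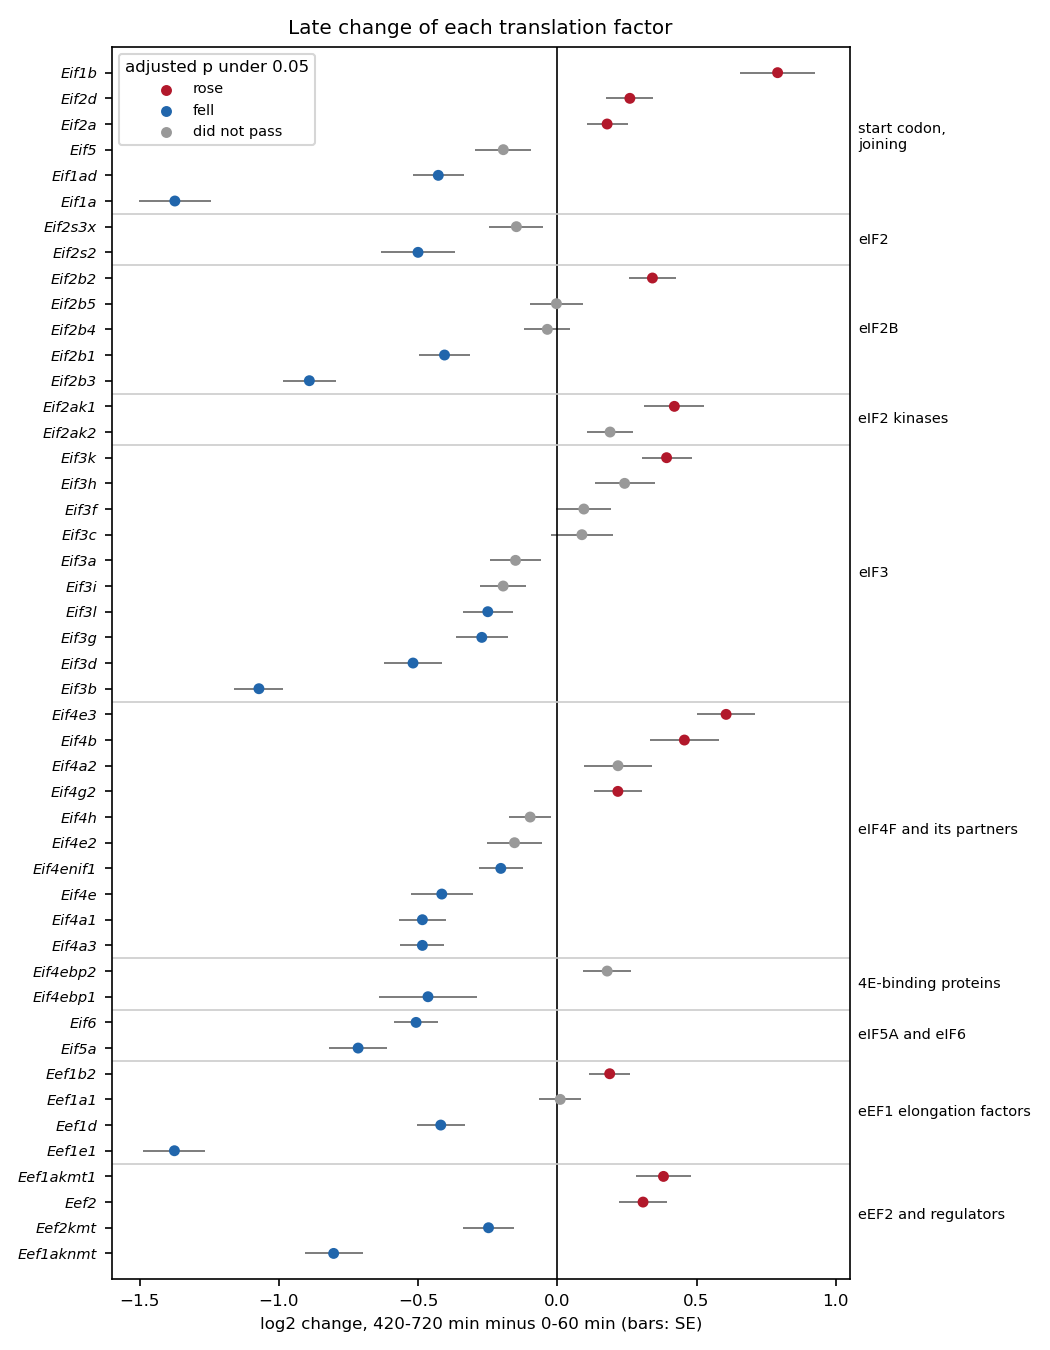
Late change of the 47 tested members, as the difference in log2 signal between the 420 to 720 min arrays and the 0 to 60 min arrays (horizontal axis), with bars for the SE. Members are grouped by role, and red points rose, blue points fell and grey points did not pass. The group labelled eEF2 and regulators also holds Eef1akmt1 and Eef1aknmt, whose products methylate eEF1A. In this grouping every group with more than 3 members holds both red and blue points.

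Over the whole time course 30 members changed (63.8%), against 61.9% of all features. A fitted curve that at 720 min was still beyond the midpoint of its largest departure was called sustained, and otherwise transient. The direction is that of the largest departure, so Eif2ak1 and Eif2d, which rose in the late window, count as transient falls and Eif4enif1, which fell late, as a transient rise. A sustained fall was found in 17 members (36.2%, against 23.6% of all features), a sustained rise in 6 (12.8%, against 24.5%), a transient fall in 5 (10.6%, against 7.54%) and a transient rise in 2 (4.26%, against 6.3%). The sustained falls reached their midpoint at a median of 360 min and the sustained rises at 240 min. These shares describe the members and were not tested against other genes. The sustained rises include Eif4e3, which passed the filter only through its later values.

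**Figure D2:**
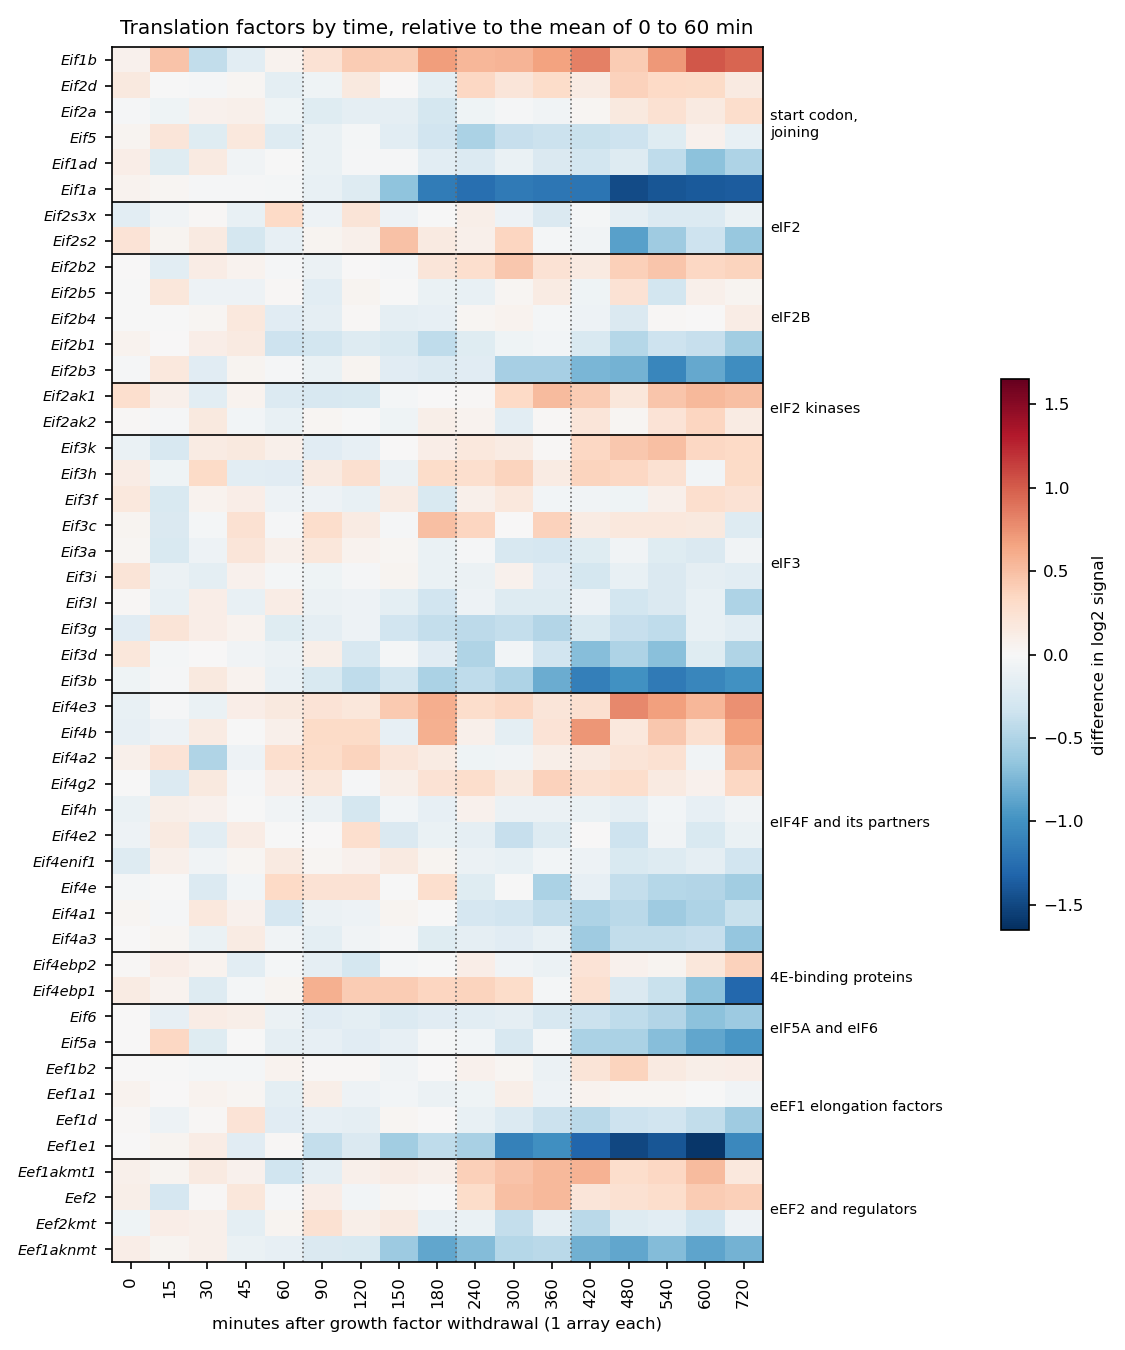
Log2 signal of the 47 tested members (rows, by role and by late change) at the 17 times (columns, minutes after withdrawal), each relative to its mean over 0 to 60 min. Blue is lower and red is higher, and dotted lines separate the 4 windows. Eif1a turns blue by 180 min, Eif4ebp1 is red from 90 to 300 min and blue from 480 min, and Eif1b is red from 90 min on.

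The counts by role that follow are small. They stand against the late shares of all features, 27% that fell and 27.9% that rose (54.9% either way). Factors that find the start codon and join the subunits went in both directions. Of 6 tested, 2 fell, Eif1a and Eif1ad, 3 rose, Eif1b, Eif2d and Eif2a, and Eif5 did not pass in the late window. Eif1a encodes eIF1A, which with eIF1 lets the small subunit scan for the start codon. Eif1a was at 10.24, 9.97, 10.03, 10.06 and 10.08 from 420 to 720 min, against 11.50, 11.48, 11.43, 11.43 and 11.41 from 0 to 60 min. It was steady through the first hour and stepped down between 120 and 180 min, at 11.32, 11.24, 10.78 and 10.29 from 90 to 180 min, and then stayed at 10.20, 10.28 and 10.25 from 240 to 360 min. The late mean was 10.07 ± 0.10 and the early mean 11.45 ± 0.04 (SD, n = 5 times each), a 2.59-fold lower signal (-1.37, SE 0.13, limma adjusted p = 1.1e-08). Its second-window change was -0.54 (adjusted p = 0.011 in limma) and -0.33 without the 180 min array, where it did not pass. A related gene, Eif1ax, encodes a nearly identical protein, and its own probe stayed between 5.74 and 6.33. Whether the Eif1a probe also bound Eif1ax transcripts was not tested.

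Eif1b encodes a close relative of eIF1. It was at 11.70, 11.28, 11.58, 11.89 and 11.83 from 420 to 720 min, against 10.93, 11.34, 10.46, 10.69 and 10.92 from 0 to 60 min. The windows overlapped through the high value at 15 min and the low one at 480 min, and the late rise was 0.79 (SE 0.13, limma adjusted p = 2.8e-05). Eif1b also rose in the third window, by 0.59 (adjusted p = 0.0044 in limma). Eif2d, whose product can place initiator tRNA without GTP, rose by 0.26 in the late window, and Eif2a, a separate factor and not the alpha subunit of eIF2, by 0.18. The call of Eif2a was lost when any of 9 arrays was left out, with a change of 0.15 to 0.21. Eif1ad, named for its eIF1A-like domain, fell by 0.43. Eif5, which makes eIF2 hydrolyse its GTP at the start codon, fell in the third window by 0.42 (adjusted p = 0.0074 in limma) and had a late change of -0.19 (adjusted p = 0.11).

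The subunits of eIF2 that were measured are beta (Eif2s2) and gamma (Eif2s3x). Eif2s2 was at 11.88, 11.05, 11.35, 11.60 and 11.32 from 420 to 720 min, against 12.17, 11.98, 12.09, 11.65 and 11.80 from 0 to 60 min. The groups overlapped at 420 min, and the fall of 0.50 (SE 0.13) passed with an adjusted p = 0.0028 in limma. Eif2s2 was at 12.13 ± 0.20 in the second window (n = 4 times), so the late window was lower than the second by 0.69 (adjusted p = 0.00039). Eif2s3x had a late change of -0.15 (95% interval -0.35 to 0.05) and did not pass.

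Of the 5 subunits of eIF2B, Eif2b3 and Eif2b1 fell, Eif2b2 rose, and Eif2b4 and Eif2b5 did not pass in the late window. Eif2b3 encodes gamma, which forms the catalytic part with epsilon (Eif2b5). Eif2b3 was at 8.99, 8.96, 8.67, 8.90 and 8.72 from 420 to 720 min, against 9.72, 9.92, 9.56, 9.78 and 9.72 from 0 to 60 min. Every late array was below every early one, with a fall of 0.89 (SE 0.10, limma adjusted p = 6.5e-08), and Eif2b3 had already fallen by 0.43 in the third window. The probe of Eif2b3 matched no gene ID or transcript of the RefSeq tables, so the symbol of the platform was kept. Eif2b1, the alpha subunit, fell by 0.41. Eif2b2, the beta subunit, was at 9.69 ± 0.12 in the late window and 9.35 ± 0.11 in the early window (SD, n = 5 times each), and no late array overlapped an early one. The 95% intervals of the late change were -0.21 to 0.14 for Eif2b4, the delta subunit, and -0.20 to 0.19 for Eif2b5. The difference between subunits was not tested.

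The kinases that phosphorylate eIF2 each sense a different stress. Eif2ak1, the kinase that responds to low heme, was at 9.18, 8.96, 9.23, 9.30 and 9.26 in the late window, against 9.04, 8.85, 8.59, 8.82 and 8.54 in the early one. The groups overlapped at 480 min, and Eif2ak1 rose by 0.42 (SE 0.11, limma adjusted p = 0.0021). It was lowest at 90 and 120 min, at 8.50 and 8.51, and rose by 0.56 between the second and the late window. Eif2ak2, the kinase PKR that responds to double-stranded RNA and is also an interferon-induced gene, was at 9.31 ± 0.12 in the late and 9.12 ± 0.10 in the early window (SD, n = 5 times each) and did not pass (0.19, adjusted p = 0.053 in limma). The probe of Eif2ak4, which senses missing amino acids, lay at the lower end of the array, between 5.35 and 5.79.

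Of the 10 measured eIF3 subunits, 4 fell in the late window, 1 rose and 5 did not pass. That is 50% either way, near the 54.9% of all features. Eif3b encodes a core subunit that holds others of the complex in place. It was at 9.23, 9.37, 9.20, 9.29 and 9.37 from 420 to 720 min, against 10.29, 10.34, 10.53, 10.42 and 10.24 from 0 to 60 min. The late arrays lay far below all early arrays, the signal was 2.10-fold lower (-1.07, SE 0.09, limma adjusted p = 1.1e-09), and the second window was in between, at 10.11, 9.95, 10.06 and 9.84. Eif3d, a subunit that can itself bind caps, fell by 0.52, Eif3g, which contacts RNA, by 0.27, and Eif3l by 0.25. The falls of Eif3g and Eif3l did not pass without certain single arrays, 15 or 540 min for Eif3g and 30, 60 or 720 min for Eif3l.

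Eif3k, an outer subunit not found in budding yeast, was at 12.24, 12.34, 12.39, 12.24 and 12.23 in the late window, against 11.79, 11.63, 12.03, 12.06 and 11.98 in the early one. The groups did not overlap, and the rise was 0.39 (SE 0.09, limma adjusted p = 0.00076). The subunits Eif3a, Eif3c, Eif3f, Eif3h and Eif3i had late changes between -0.19 and 0.24 that did not pass. Eif3f, for example, was at 13.99 ± 0.16 in the late window and 13.89 ± 0.17 in the early window (SD, n = 5 times each).

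Genes of the cap-binding machinery and its partners were also divided, with 4 falls (40%), 3 rises (30%) and 3 that did not pass among 10. Of all features 27% fell and 27.9% rose. The rises include Eif4e3, which passed the filter only through its later values. Eif4e, the protein that grips the cap, was at 8.34, 8.08, 8.01, 7.99 and 7.90 from 420 to 720 min, against 8.44, 8.47, 8.25, 8.43 and 8.80 from 0 to 60 min. The groups overlapped at 420 min, and Eif4e fell by 0.41 (SE 0.11, limma adjusted p = 0.0029). In the second window it had been at 8.66 ± 0.13 (n = 4 times), which put the late window lower by 0.60 (adjusted p = 0.00024 in limma). Eif4a1, the helicase that unwinds the leader of the mRNA, was at 13.96 ± 0.08 in the late window and 14.44 ± 0.17 in the early window, and Eif4a3, a related helicase that sits in the exon junction complex, at 10.85 ± 0.12 in the late and 11.33 ± 0.10 in the early window (SD, n = 5 times each). Both fell by 0.48, and in both every late array was below every early one. Eif4enif1, which carries eIF4E into the nucleus and into silenced particles, fell by 0.20, and this call was lost when any of 6 arrays was left out.

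Among the rises, Eif4b, the partner that stimulates the helicase, was at 9.09, 8.53, 8.81, 8.62 and 9.02 in the late window, against 8.23, 8.27, 8.49, 8.35 and 8.45 in the early one. It lay above every early array, with a rise of 0.46 (SE 0.12, limma adjusted p = 0.0031), although the curve over all times did not pass (adjusted p = 0.059). Eif4e3, a cap-binding relative of eIF4E, was at 6.59, 7.12, 7.00, 6.87 and 7.08 in the late window, against 6.20, 6.30, 6.21, 6.43 and 6.48 in the early one, a rise of 0.61 (SE 0.10, adjusted p = 3.1e-05 in limma). Its early mean of 6.33 lay below the median of all probes, so it passed the filter only through its later values. Eif4g2, a relative of the scaffold eIF4G that lacks the site for eIF4E, rose by 0.22 and lost its call without any of 6 arrays. The curve of Eif4g2 over all times did not pass (adjusted p = 0.10 in limma). Eif4h, Eif4e2 and Eif4a2 did not pass.

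Related genes differed in their late change within several families. The 8 pairs below were picked after these changes were seen, so the distance between the changes is a description with no test. In the eIF4A family the late change was -0.48 for both Eif4a1 and Eif4a3 and 0.22 for Eif4a2, a distance of -0.70 from Eif4a2 for each. In the eIF4E family it was -0.41 for Eif4e, -0.15 for Eif4e2, which also binds caps but acts as a repressor, and 0.61 for Eif4e3. Eif4e thus lay -1.02 and Eif4e2 -0.76 from Eif4e3, whose early values were too low to pass the filter by themselves, and Eif4e lay -0.26 from Eif4e2. Eif4ebp1 lay -0.64 from Eif4ebp2, and -0.39 when the 720 min array was left out. Eif2ak1 lay 0.23 from Eif2ak2, and 0.15 when the 30 min array was left out.

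**Figure D3:**
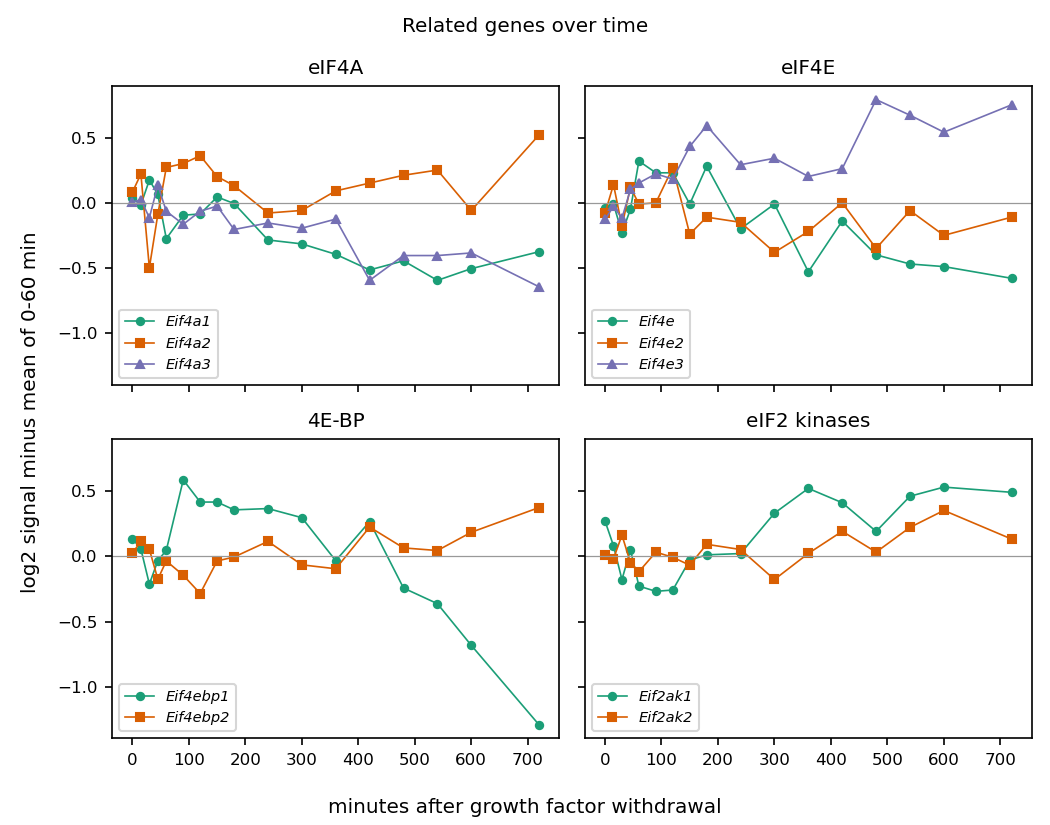
Log2 signal of related genes over minutes after withdrawal, each relative to its own mean over 0 to 60 min, 1 array at each time. Eif4e3 ends above the line while Eif4e ends below it, and Eif4a2 stays mostly above Eif4a1 and Eif4a3. Eif4ebp1 is just below the line at 360 min, above it at 420 min and below it from 480 min on.

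Eif4ebp1 encodes the inhibitor that binds eIF4E until mTORC1 phosphorylates it, and it is a known target gene of Atf4. It was at 11.80, 11.72, 11.45, 11.63 and 11.71 from 0 to 60 min, at 12.25, 12.08, 12.08 and 12.02 from 90 to 180 min, at 12.03, 11.96 and 11.63 from 240 to 360 min, and at 11.93, 11.42, 11.30, 10.98 and 10.37 from 420 to 720 min. All 4 arrays of the second window lay above all early arrays, but the rise of 0.44 did not pass (adjusted p = 0.14 in limma). The values then declined at each time after 420 min, and the late window was lower than the second by 0.91 (SE 0.19, limma adjusted p = 0.00042) and lower than the early one by 0.46 (SE 0.18, adjusted p = 0.029). The late window spans that decline, with a mean of 11.20 ± 0.58, against 11.66 ± 0.13 in the early window. The call against the early window was lost when the 0, 15, 60, 600 or 720 min array was left out, and the change was -0.26 without 720 min. Without the 720 min array the rise in the second window passed (adjusted p = 0.028 in limma). Eif4ebp2, another inhibitor of the same family, was at 9.33 ± 0.13 in the late and 9.15 ± 0.11 in the early window and did not pass against the early window (0.18, adjusted p = 0.086), but rose by 0.30 between the second and the late window (adjusted p = 0.012).

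Between the late and the second window 17 members fell (36.2%) and 8 rose (17%), against 20.8% of all features that fell and 22.1% that rose (42.9% either way). Eef1e1 fell by 0.97, Eif4ebp1 by 0.91, Eif1a by 0.83, Eif2b3 by 0.77 and Eif3b by 0.70. The rises were smaller, up to 0.56 for Eif2ak1 and 0.44 for Eif3k. This comparison and that of the late with the early window share the 5 late arrays.

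Both genes of eIF5A and eIF6 fell late. Eif5a encodes a factor that helps the ribosome through stalling sequences. This factor carries the modified lysine hypusine, a residue made with spermidine. Eif5a was at 11.87, 11.87, 11.69, 11.53 and 11.43 from 420 to 720 min, against 12.40, 12.73, 12.19, 12.39 and 12.25 from 0 to 60 min. It held between 12.13 and 12.36 from 90 to 360 min and dropped only after that, with a late fall of 0.72 (SE 0.10, limma adjusted p = 3.8e-06). Eif6, which keeps the large subunit from joining too early and takes part in its assembly, was at 11.14 ± 0.13 in the late window and 11.64 ± 0.12 in the early window, with no overlap (-0.51, adjusted p = 1.3e-05). The probe of Eif5a2, a relative of Eif5a, stayed between 5.64 and 6.13.

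**Figure D4:**
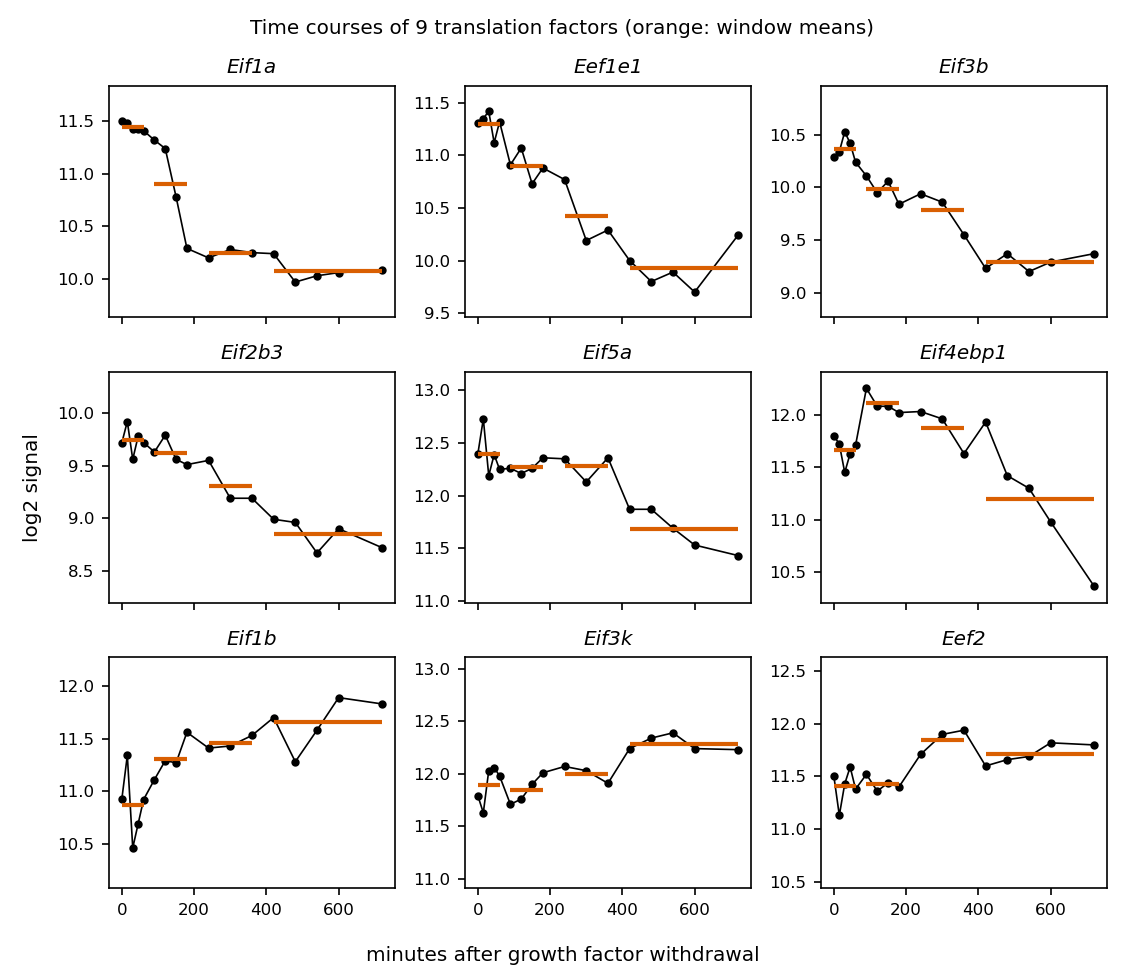
Log2 signal of 9 translation factors against minutes after withdrawal, with 1 point for each array and orange bars for the means of the 4 windows. All panels span the same range of 2.2 log2 units. Eif1a steps down by 180 min, Eif3b and Eef1e1 decline over several hours, Eif5a drops after 360 min and Eif4ebp1 declines after 420 min.

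Of the 4 tested eEF1 genes 2 fell, 1 rose and Eef1a1 did not pass, and the fall of Eef1e1 was, with that of Eif1a, the largest among tested members. Eef1a1, which delivers aminoacyl-tRNA, was at 15.14, 15.11, 15.11, 15.07 and 15.02 from 420 to 720 min, against 15.14, 15.08, 15.14, 15.11 and 14.92 from 0 to 60 min. Its late change was 0.01 (95% interval -0.14 to 0.17), and these values lie near the highest value in the table, 15.47. Eef1b2 and Eef1d encode exchange factors that recharge eEF1A. Eef1b2 rose by 0.19 (adjusted p = 0.034 in limma), a call lost without any of 6 arrays, and Eef1d fell by 0.42 (adjusted p = 0.00027). The curve of Eef1b2 over all times did not pass (adjusted p = 0.31 in limma). Eef1e1 carries an elongation factor name but its product is a part of the multi-tRNA synthetase complex. It was at 10.00, 9.80, 9.89, 9.70 and 10.24 in the late window, against 11.31, 11.35, 11.42, 11.12 and 11.32 in the early one. That is 2.59-fold lower (-1.37, SE 0.11, limma adjusted p = 9.2e-10), after a fall of 0.40 in the second window, which did not pass without the 15, 30, 150 or 180 min array, and of 0.88 in the third.

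Eef2, the factor that moves the ribosome by 1 codon, was at 11.60, 11.66, 11.69, 11.82 and 11.80 in the late window, against 11.50, 11.13, 11.43, 11.59 and 11.38 in the early one. The late arrays lay just above the early ones, with a rise of 0.31 (SE 0.09, limma adjusted p = 0.0047), and the third window was higher still by 0.44 over the early one. The methyltransferases of elongation factors were divided. Eef1aknmt, which methylates eEF1A, fell by 0.80 in the late window (SE 0.10, adjusted p = 8.9e-07 in limma) and had already fallen by 0.49 in the second. It was at 8.32, 8.25, 8.39, 8.24 and 8.33 in the late window, against 9.22, 9.16, 9.20, 9.00 and 8.98 in the early one, so that the groups lay well apart. Eef2kmt, which methylates eEF2, fell by 0.25, a call lost without any of 5 arrays. Eef1akmt1, which methylates a lysine of eEF1A, rose by 0.38 in the late and 0.47 in the third window.

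Because members moved in both directions, their promoters were searched for 3 short motifs, each on both strands: the E-box CACGTG bound by MYC and related factors, the cyclic AMP response element TGACGTCA, and TGATGNAA, a core of the element bound by Atf4 with C/EBP factors. RefSeq promoter windows of GRCm38.p6, from 250 bases before to 50 after each annotated start, were matched by symbol to 44 of the 56 members. The E-box was in 13 of 56 member windows (23.2%) and in 7.15% of all 32851 windows. Windows of a gene can overlap, and 1 E-box of Eif5a is counted in more than 1 of its windows. By gene it was in at least 1 window of 11 of the 44 members (25%), against 11.9% of the 7326 tested genes with a window. The sets are unlike, since the 44 include members below the filter and the tested genes do not. It occurred on both sides, in 4 of 15 members that fell late (Eef1aknmt, Eif4a1, Eif4e and Eif5a), 3 of 9 that rose (Eef2, Eif1b and Eif3k) and 3 of 13 that did not pass (Eif3a, Eif3f and Eif4h), and also in Eif5a2, which lay below the filter. Groups this small were not tested against each other. The response element was in 1 of 56 member windows (1.79%), that of Eef2, and in 1.79% of all windows. TGATGNAA was also in 1 of 56 (1.79%), that of Eif2s3x, and in 3.97% of all windows. By gene each was in 1 of the 44 members (2.27%), against 3.75% and 2.61% of the tested genes with a window. A match of letters is not a binding site. To show an E-box beside each kind of course, the bases around it are given for Eif4a1, which fell, Eef2, which rose, and Eif3f, which did not pass, read on the strand of the gene with the E-box in capitals.
Eif4a1, chr11:69672560-69672659, minus strand: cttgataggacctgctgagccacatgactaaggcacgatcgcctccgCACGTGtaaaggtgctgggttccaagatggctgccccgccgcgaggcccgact
Eef2, chr10:81176541-81176630, plus strand: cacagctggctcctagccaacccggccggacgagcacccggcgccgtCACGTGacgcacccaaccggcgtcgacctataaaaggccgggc
Eif3f, chr7:108934300-108934399, plus strand: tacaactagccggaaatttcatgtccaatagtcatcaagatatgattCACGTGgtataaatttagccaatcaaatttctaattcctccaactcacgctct
The E-box begins 189 bases before the start of Eif4a1, 43 before that of Eef2 and 68 before that of Eif3f.

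The remaining 9 members lay below the median of all probes: Eef1a2, the form of eEF1A used in mature neurons and muscle, Eef1akmt2, Eif1ax, Eif2ak4, Eif2s3y, Eif4e1b, Eif4ebp3, Eif5a2 and Eif5b. In the same limma models on 19854 features without the filter, 0 of the 9 changed in any comparison, and 0 had an unadjusted p under 0.05 in the late window. Their late changes lay between -0.13 for Eif5a2 and 0.09 for Eef1akmt2. Without detection values, a probe at this level cannot be told apart from background. A further 13 genes of the role lists, among them Eif2s1, Eif2ak3, Eif4g1 and Eef2k, had no named probe here and were not analysed.

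Other genes of translation that are not Eif or Eef genes were read from 6 lists, with 36 of 39 genes above the filter. In the late window 9 rose (25%) and 13 fell (36.1%), together 61.1%, against 27.9% of all features that rose, 27% that fell and 54.9% either way. The counts by list that follow are small and stand against the same shares. All 4 tested genes of the pathways that make hypusine or diphthamide, the modified residues of eIF5A and eEF2, fell, with Dph2 at -1.05 and Dhps, the first enzyme of hypusine synthesis, at -0.65. Of 7 termination and recycling genes 4 fell and 0 rose, with Denr at -0.54 and Etf1, the release factor that reads stop codons, at -0.45. Of 7 poly(A)-binding proteins and regulators 4 rose and 1 fell. The largest rises were in Pdcd4, which blocks eIF4A and rose by 1.24, and Paip2, which pulls poly(A)-binding protein off the mRNA tail and rose by 1.12. The fall was in Larp1 (-0.91), named after its value was seen, which binds mRNAs of ribosomal proteins and elongation factors.

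Of 4 genes of the eIF2 phosphatase and partners of Gcn2, 1 rose and 1 fell in the late window. The adaptor Nck1 rose by 0.76, and Ppp1r15b, the constitutive partner of the eIF2 phosphatase, fell by 0.39. Ppp1r15a, its stress-induced partner, was picked out after its values were seen and rose by 0.42 in the second window (adjusted p = 0.006 in limma). Of 5 genes of the mTORC1 and MNK arm only Mknk2, a kinase that phosphorylates eIF4E, changed in the late window (0.44), and Rptor had a change of 0.15 that did not pass. Of 9 mitochondrial translation factors 3 rose and 3 fell, and the elongation factors Tsfm (-0.72) and Gfm1 (-0.60) had the largest changes.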

How the data were processed

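Total RNA of 17 samples was amplified and biotin-labelled with an Illumina TotalPrep kit, per the labels' protocols. The deposited log2 values, a scale read from their range of 5.14 to 15.47, came with no detection values. For background correction and normalization, the method is not given in the sources used here. Sorted values differed by at most 0.135 between arrays, so no scaling was added. Precision is limited by having 17 arrays.

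Of 19949 probes 18351 had a symbol, updated through RefSeq tables of GRCm38.p6, which renamed 3 members. The brightest probe stood for a gene, and probes with a mean under 6.41 were left out, which kept 9940 features. Tests used limma 3.58.1 in R 4.3.3, with all windows in 1 fit and, for the time course, a natural spline (4 degrees of freedom, square root of time). The procedure was tested on simulated data. Members, lists and windows were chosen with earlier results of these data known. The members described by rule were the largest changes per role and window, with Eif4ebp1, Eif4e, Eef1a1 and Eef2 always, and the rest are named to account for all.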

Additional observations from a re-analysis of the deposited data

Results flagged for a closer look

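The early, second and late windows of each tested member were screened for an array whose gap to its nearest neighbour, as a share of the window's range, was above Dixon's 95% critical value. The third window, with 3 arrays, is too small for this and was not screened. Of 141 such sets 6 (4.26%) held such an array. The nominal rate of 1 in 20 holds for unrelated values without a trend. These sets share arrays and some values trend within a window, so the share was not tested against that rate. Eef1a1 was lowest in the early window at 60 min, at 14.92, with the next value at 15.08. Eef1akmt1 was lowest at 60 min in the early window, at 8.36 against 8.74, and at 90 min in the second window, at 8.54 against 8.78. Eif2b4 was highest in the second window at 120 min, at 10.45 against 10.30. In the late window Eif3c was lowest at 720 min, at 10.82 against 11.16, and Eif3h at 600 min, at 7.95 against 8.25.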

How the results depend on the processing

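When each array was left out in turn, 29 to 32 members changed over the time course. In the late window 16 to 21 fell, with 16 when 60 min was left out, and 9 to 13 rose, with 9 without 0 min. In the third window 7 to 9 fell and 4 to 7 rose, with 4 without 360 min. In the second window 1 to 5 fell and 0 to 3 rose, with 1 fall without 180 min. Between the late and second windows 16 to 17 fell and 6 to 9 rose. Of the 32 late calls, 24 held in all these runs, as did 10 of 14 in the third window and 1 of 6 in the second. With no filter, a filter at a mean of 7, array weights or an early window ending at 45 min, 1 member rose in the second window. The filter at 7 takes Eif4e3 (mean 6.64), which rose there in the main fit, out of the test, so that setting cannot show whether its call holds. For the members described by rule, 1928 alternative values stayed called or stayed not called, 41 lost their call and 22 gained one. No change that was called in either fit reversed its direction, but changes called in neither could switch sign. No paired analysis was possible because each time has 1 array. Signal over background limits the 9 dim members, for which no change could be read.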
